A study of Mus musculus with 24 samples.

Results

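A set of 6 genes whose products are secreted in defence against microbes or in the acute phase were followed: the lysozymes Lyz1 and Lyz2, the protease inhibitor Slpi, the siderophore-binding protein Lcn2, the serum amyloid Saa3 and haptoglobin Hp. They are 6 of the 56691 genes in each of 2 tables, 1 per cell type. They were chosen by earlier results of the same files: Lyz1 and Slpi for their low values in RAW264.7 libraries labelled Olfml3 knockout, and the other 4 as further secreted defence genes. The knockout against wild type values of RAW264.7 are therefore given below as a description, with no test, and the tests rest on bone marrow-derived macrophages (BMDMs) and on the LPS response.

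The libraries came from RAW264.7, a mouse macrophage-like leukemia line, and from primary BMDMs, with 3 libraries in each of 8 groups. Wild-type and Olfml3 knockout cells of each type received PBS or 100 ng/mL LPS, a bacterial cell wall lipid, for 4 h. According to the study's methods, the RAW264.7 knockouts were single-cell clones made with lentiviral CRISPR guides, but the sources used here do not give their number. Mutations were read by Sanger sequencing, and the study describes such clones as knocked out at both Olfml3 alleles. The BMDMs came from 8-week-old male C57BL/6 mice, wild type or with a CRISPR-made Olfml3 deletion. A clone and the loss of a gene cannot be told apart in RAW264.7. The study calls its RNA-seq replicates biological, but the labels do not say whether they were separate cultures or mice. The p-values therefore measure the spread between these libraries, which may be technical.

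Counted reads per library ran from 11638273 to 16478616 for the line and from 17121240 to 22873094 for the primary cells. Olfml3, a secreted olfactomedin-domain protein and the targeted gene, went with the titles in BMDMs, where it reached 0.53 to 0.65 FPKM in wild type and 0.01 to 0.03 in knockout with PBS. In RAW264.7 it went against them: 0.15 to 0.19 FPKM in wild type and 0.65 to 1.19 in the libraries labelled knockout with PBS, and 0.13 to 0.29 against 18.33 to 18.93 with LPS. Those 6 libraries are called labelled knockout throughout, since the RNA level alone does not tell whether the gene was disrupted. The genotype tag contradicted the title in 12 of the 24 libraries, and groups were taken from the titles. FPKM, reads per kilobase of exon scaled to the counted reads of the library, is a scale on which genes of different length can be compared. The tables of the cell types were normalized separately, so levels set across them were not tested. In bulk RNA, fewer cells that express a gene and less RNA per cell cannot be told apart.

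Lysozymes cut the peptidoglycan of bacterial walls. In mice Lyz2, the M form, is the lysozyme of macrophages and neutrophils, whereas Lyz1, the P form, is best known from Paneth cells of the small intestine. Slpi inhibits neutrophil elastase and cathepsin G, Lcn2 withholds iron by binding bacterial siderophores, Saa3 is an acute phase protein made outside the liver, and Hp captures free hemoglobin. Lcn2 and Saa3 are classical targets of NF-kB, its cofactor IkBz (Nfkbiz) and C/EBP factors downstream of Toll-like receptors.

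The 250 bases before the start of 5 of the 6 genes, from RefSeq on GRCm38.p6, are shown because the lysozyme pair is near-identical close to the start, and because Lcn2, Saa3 and, in 3 of the 4 LPS comparisons, Slpi were higher with LPS. Capitals mark matches to a C/EBP motif, TTGCNNAA, or to an NF-kB motif, GGGNNNNNCC, on either strand.
Lyz1, chr10:117292869-117293118, minus strand: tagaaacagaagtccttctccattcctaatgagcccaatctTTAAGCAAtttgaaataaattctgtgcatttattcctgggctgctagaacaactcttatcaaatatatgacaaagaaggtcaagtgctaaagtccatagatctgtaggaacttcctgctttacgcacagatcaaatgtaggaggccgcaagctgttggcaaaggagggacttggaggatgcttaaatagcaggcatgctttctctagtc
Lyz2, chr10:117282273-117282522, minus strand: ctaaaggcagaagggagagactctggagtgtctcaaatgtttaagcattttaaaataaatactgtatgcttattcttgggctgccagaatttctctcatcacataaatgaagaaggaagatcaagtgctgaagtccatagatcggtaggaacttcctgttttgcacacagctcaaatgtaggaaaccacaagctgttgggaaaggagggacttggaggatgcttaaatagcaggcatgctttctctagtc
Slpi, chr2:164356508-164356757, minus strand: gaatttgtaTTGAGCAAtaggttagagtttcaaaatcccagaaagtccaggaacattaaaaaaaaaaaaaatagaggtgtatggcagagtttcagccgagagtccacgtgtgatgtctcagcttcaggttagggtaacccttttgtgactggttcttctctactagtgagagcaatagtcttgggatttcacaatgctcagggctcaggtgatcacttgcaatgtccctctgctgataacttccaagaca
Lcn2, chr2:32387740-32387989, minus strand: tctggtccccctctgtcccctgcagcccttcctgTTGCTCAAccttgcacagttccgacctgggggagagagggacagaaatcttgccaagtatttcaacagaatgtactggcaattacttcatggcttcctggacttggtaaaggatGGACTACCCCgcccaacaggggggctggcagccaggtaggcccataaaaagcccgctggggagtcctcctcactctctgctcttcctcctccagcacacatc
Saa3, chr7:46715677-46715926, minus strand: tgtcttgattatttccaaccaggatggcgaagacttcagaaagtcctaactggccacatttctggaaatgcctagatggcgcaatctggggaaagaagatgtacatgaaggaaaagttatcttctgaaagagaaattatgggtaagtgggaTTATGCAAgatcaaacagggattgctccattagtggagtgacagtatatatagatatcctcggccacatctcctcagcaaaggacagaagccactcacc
The C/EBP letters stood in Lyz1, Slpi, Lcn2 and Saa3, at -209, -241, -216 and -99 relative to the start, and in 9.56% of 32851 promoter windows of this length. NF-kB letters stood in Lcn2 at -102 and in 45.8% of all windows. An ETS motif, AGGAAGT, which 7.69% of windows held, lay in both lysozyme promoters at -100. Compared position by position without gaps, Lyz1 and Lyz2 were equal at 152 of 250 positions (60.8%), and at 92 of the 100 nearest to the start (92%). The Slpi and Lcn2 windows lie inside the gene spans given next, and the Lyz2 and Saa3 windows reach into theirs. RefSeq and the GENCODE annotation start these genes at different positions, and the motif positions count from the RefSeq start. The matches are a description and not evidence of binding.

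All 6 genes lie on the minus strand of GRCm38. Lyz1 (chr10:117287797-117292868, 4 exons) and Lyz2 (chr10:117277331-117282321, 4 exons) are neighbours 5475 bases apart, Slpi is at chr2:164354070-164389095 (4 exons), Lcn2 at chr2:32384633-32388252 (6 exons), Saa3 at chr7:46711998-46715700 (4 exons) and Hp at chr8:109575128-109579172 (5 exons). The 2 lysozyme transcripts share sequence: of all windows of 50 bases, 16.1% of those in Lyz1 occur in Lyz2 and 15.4% of those in Lyz2 occur in Lyz1, and the longest common run is 118 bases. No window of 150 bases, the length of 1 read, is shared, and how reads that match both genes were assigned was not given in the sources used here. In Saa3, 1.78% of windows of 50 bases occur in Saa1.

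Lyz2 was the most abundant of the 6 genes in every group. In wild-type RAW264.7 cells with PBS, Lyz2 reached 2078.03, 2038.54 and 2039.73 FPKM, and it ranked 10 or 11 among all genes. The libraries labelled knockout held 408.15, 259.44 and 284.52 FPKM, which is 15.5% of the wild-type mean. With LPS the values were 2221.43, 2118.22 and 2264.21 in wild type and 392.40, 399.64 and 433.22 in labelled knockout. No labelled knockout library reached a wild-type one in either condition, and the difference was -2.72 on the log2 scale with PBS and -2.43 with LPS. The labelled knockout PBS library 1, which correlated least with its own group (mean r 0.964 against 0.969 and 0.97), held the highest Lyz2 of the 3, and without it the difference was -2.92.

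Lyz1 was far lower, at 10.20, 9.42 and 10.12 FPKM in wild type with PBS. In labelled knockout it stood at 0.14, 0.10 and 0.06 FPKM, from 3, 2 and 1 counts, or 1.01% of the wild-type mean. With LPS wild type gave 8.23, 7.43 and 9.93 FPKM and labelled knockout 0.27, 0.48 and 0, from 4, 8 and 0 counts. The groups did not overlap in either condition, with log2 differences of -5.66 and -4.95 (-3.31 and -2.94 with a pseudocount of 1). The ratio of the 2 genes differed as well, since the share of Lyz1 in all lysozyme counts was 0.461% in wild type (0.441 to 0.474% over 3 libraries) and 0.0297% in labelled knockout (0.0187 to 0.0365%) with PBS. With LPS the shares were 0.370% and 0.0606%. The summed level of both genes was 2062 ± 22.7 FPKM (SD, n = 3) in wild type and 317.5 ± 79.6 in labelled knockout with PBS.

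In BMDMs Lyz2 ranked first among all genes in every library and took 1.30 to 2.02% of counted reads. With PBS it reached 12480.32, 12327.12 and 12119.96 FPKM in wild type and 15323.16, 14175.88 and 15322.50 in knockout. Tests in BMDMs used limma on log2(FPKM + 0.1) with p-values adjusted over all genes, and genes were called at an adjusted p under 0.05 if they also differed by 1.5-fold or more. All 3 knockout libraries lay above all wild-type ones, and the log2 difference of 0.28 (SE 0.04) had an adjusted p of 0.00702 (limma), but it was under the fold limit (0.585 on the log2 scale). With LPS the values were 10085.03, 9903.82 and 9889.54 in wild type and 10674.56, 10872.36 and 10916.91 in knockout, a log2 difference of 0.12 with adjusted p = 0.106.

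Lyz1 in BMDMs was 4.16, 3.00 and 2.24 FPKM in wild type and 4.16, 4.15 and 3.26 in knockout with PBS, and 2.40, 2.81 and 2.55 against 2.74, 2.71 and 3.01 with LPS. The groups overlapped in both conditions, with log2 differences of 0.33 (95% interval -0.10 to 0.76, adjusted p = 0.530) and 0.12 (-0.31 to 0.55, adjusted p = 0.808). Its share of lysozyme counts was 0.0244, 0.0248, 0.0249 and 0.0250% in the 4 BMDM groups, while the summed level ran from 9962 to 14940 FPKM. In labelled knockout RAW264.7 with PBS the share, 0.0297%, was close to these, but it rests on 3, 2 and 1 Lyz1 counts. With LPS it was 0.0606% (0 to 0.115% over 3 libraries), from 4, 8 and 0 counts. Whether some of these Lyz1 counts are reads of Lyz2 was not tested.

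**Figure D1:**
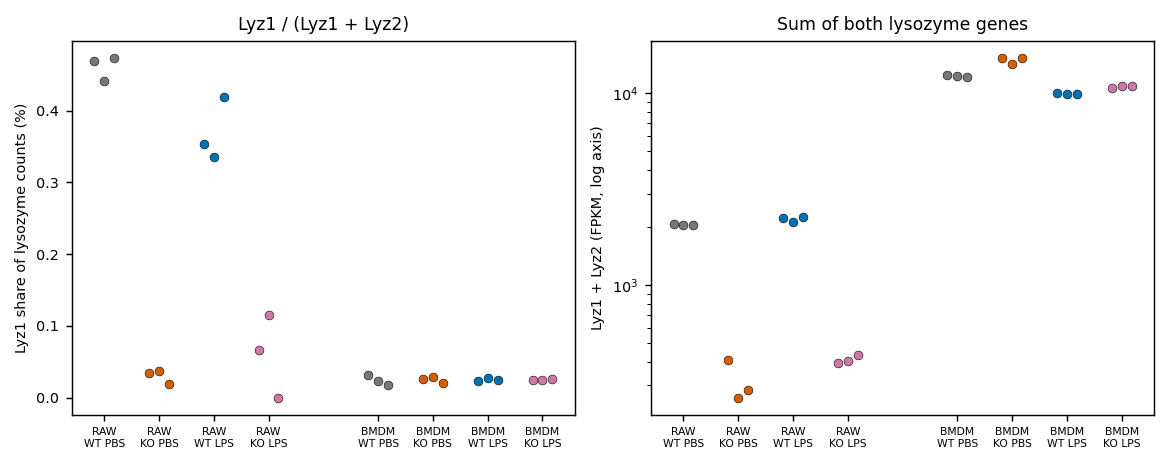
Share of Lyz1 among all Lyz1 and Lyz2 counts (left, percent) and the sum of both genes (right, FPKM on a log axis), with 1 point per library and 3 libraries in each of 8 groups. KO on the RAW axis labels means labelled knockout. The wild-type RAW264.7 shares, 0.335 to 0.474%, lie above those of every other library, and the BMDM shares lie between 0.0177 and 0.0320%.

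Slpi was highest in wild-type RAW264.7 cells. There it stood at 8.50, 9.29 and 9.54 FPKM with PBS, against 0.26, 0.26 and 0.36 in labelled knockout (5, 5 and 6 counts), which is 3.22% of the wild-type mean. With LPS wild type reached 24.83, 22.41 and 23.38 FPKM and labelled knockout 1.53, 0.51 and 1.25 (21, 8 and 18 counts). The groups did not overlap in either condition, and the log2 differences were -4.56 and -4.42 (-2.97 and -3.58 with a pseudocount of 1). Every labelled knockout library with LPS stayed below every wild-type library with PBS.

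In BMDMs Slpi was low in every group. Wild type with PBS gave 0.30, 0.15 and 0.50 FPKM (8, 4 and 13 counts) and knockout 0.12, 0.07 and 0.10 (3, 2 and 2 counts), and with LPS the values were 0.60, 0.35 and 0.57 against 0.51, 0.37 and 0.54. The PBS groups did not overlap, and the knockout mean was 30.5% of wild type, but the adjusted p was 0.126 (limma, 95% interval of the log2 difference -1.68 to -0.33). With LPS the groups overlapped and the difference was -0.07 (-0.74 to 0.61).

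**Figure D2:**
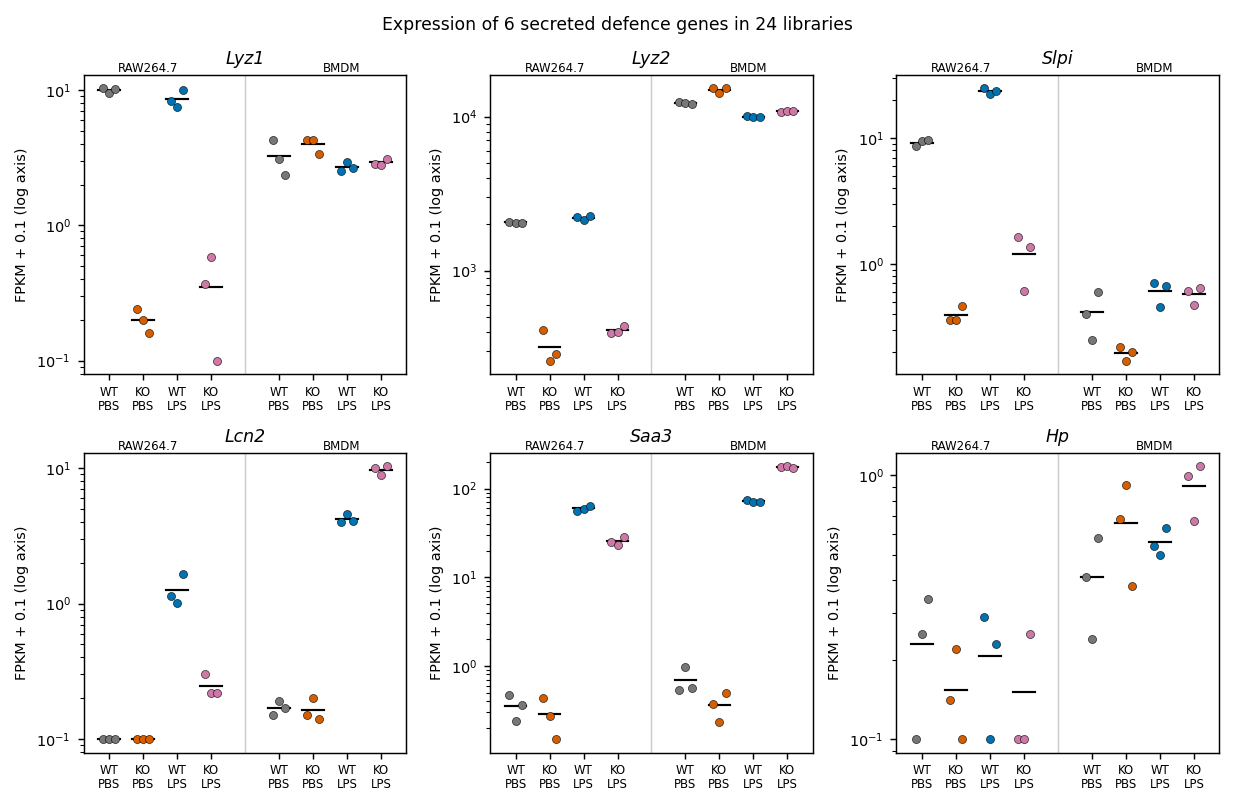
FPKM plus 0.1 on a log axis for each gene, with 1 point per library and a bar at the group mean, for 3 libraries in each of 8 groups, RAW264.7 left and BMDM right in each panel. KO in RAW264.7 means labelled knockout. Lyz1, Lyz2 and Slpi separate wild type from labelled knockout in RAW264.7 with and without LPS, while Lcn2 and Saa3 separate LPS from PBS in both cell types.

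Lcn2 had no count in any of the 6 RAW264.7 libraries with PBS, which allows up to 0.0268 FPKM in wild type and 0.0244 in labelled knockout (3 counts over a group, counting error only). With LPS it stood at 1.04, 0.91 and 1.56 FPKM in wild type (35, 35 and 59 counts) and at 0.20, 0.12 and 0.12 in labelled knockout (6, 4 and 4 counts), or 12.5% of the wild-type mean, without overlap. The log2 difference was -2.35, and it lay between -0.91 (pseudocount 1) and -3.04 (edgeR without a filter) under the alternatives. In BMDMs it was near 0 with PBS, at 0.05, 0.09 and 0.07 FPKM in wild type and 0.05, 0.10 and 0.04 in knockout. With LPS it reached 3.92, 4.47 and 3.99 FPKM in wild type and 9.95, 8.82 and 10.22 in knockout. All 3 knockout libraries were above all 3 wild-type ones, so the order by title was opposite to that in RAW264.7 (difference between cell types not tested). In RAW264.7 Olfml3 RNA went against the titles, so this order rests on the labels.

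Saa3 followed the same order at higher levels. RAW264.7 with PBS gave 0.37, 0.14 and 0.26 FPKM in wild type and 0.33, 0.17 and 0.05 in labelled knockout, which overlapped. With LPS wild type reached 56.09, 59.39 and 64.21 FPKM and labelled knockout 25.16, 22.77 and 28.26, a log2 difference of -1.24. BMDMs with PBS gave 0.43, 0.86 and 0.47 FPKM in wild type and 0.27, 0.13 and 0.39 in knockout, and with LPS 75.23, 70.22 and 71.38 against 174.44, 177.96 and 169.53. Knockout BMDMs lay below wild type with PBS, at 44.9% of its mean (adjusted p = 0.124, limma), and above it with LPS, without overlap in either condition.

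Hp was close to 0 in all RAW264.7 groups, with 0 to 5 counts per library. In BMDMs it gave 0.31, 0.14 and 0.48 FPKM in wild type and 0.58, 0.82 and 0.28 in knockout with PBS, and 0.44, 0.40 and 0.53 against 0.89, 0.57 and 0.98 with LPS. Only the LPS groups did not overlap. The log2 differences of 0.69 in both conditions had adjusted p values of 0.489 and 0.304 (limma).

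In RAW264.7, 3 of the 6 genes (Lyz1, Lyz2 and Slpi) were at least 1.5-fold lower in labelled knockout with PBS without overlap of the libraries, as were 5.18% of 26740 genes with a value. With LPS these were 5 of 6, Hp being the exception, beside 8.83% of all genes. The genes were chosen on this contrast, so nothing is read from either count. In BMDMs with PBS, none of the 6 was called (limma), beside 1.82% of 26973 genes. An unadjusted p under 0.05 was reached by 3, namely Lyz2, Slpi and Saa3, and the count tests called 2 of 6 (edgeR, Slpi and Saa3, both lower in knockout) or 1 (DESeq2, Saa3).

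With LPS, 2 of 6 were called in knockout BMDMs against wild type, both higher, beside 4.76% of all genes called in either direction and 3.23% called as higher. Lcn2 was 2.34-fold higher in mean FPKM, with a log2 difference of 1.21 (SE 0.14, adjusted p = 0.000365, limma). For Saa3 the ratio was 2.41 and the log2 difference 1.27 (SE 0.28, adjusted p = 0.0111, limma). Both calls held under all 26 alternatives run, leaving out each library included. With LPS the summed level of 6 neutrophil markers was 53.51 to 55.33 FPKM in knockout BMDMs and 44.47 to 46.80 in wild type. Ly6g among them was at 0 and Cxcr2 averaged 0.01 or less. Csf3r made up most of the sum and was higher in knockout (43.5 and 33.8 FPKM). The means of Mmp8 (5.67 and 5.91), S100a8 (2.98 and 3.17) and S100a9 (2.39 and 2.97) were slightly lower in knockout. Whether neutrophil content had a part in the Lcn2 and Saa3 differences was not tested.

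The genotype difference itself depended on LPS for the same genes: the interaction called 2 of 6 in BMDMs, both higher, beside 2.93% of all genes in either direction and 1.91% higher. It was 2.20 (SE 0.39, adjusted p = 0.0109, limma) for Saa3, whose genotype difference went from -0.93 to 1.27. For Lcn2 it was 1.28 (SE 0.20, adjusted p = 0.00521, limma), but Lcn2 had 2 to 6 counts per library with PBS and the call was lost with edgeR and DESeq2 (1.15 with both, adjusted p = 0.199 and 0.209), over a range of 3.42e-05 to 0.376 for all alternatives.

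**Figure D3:**
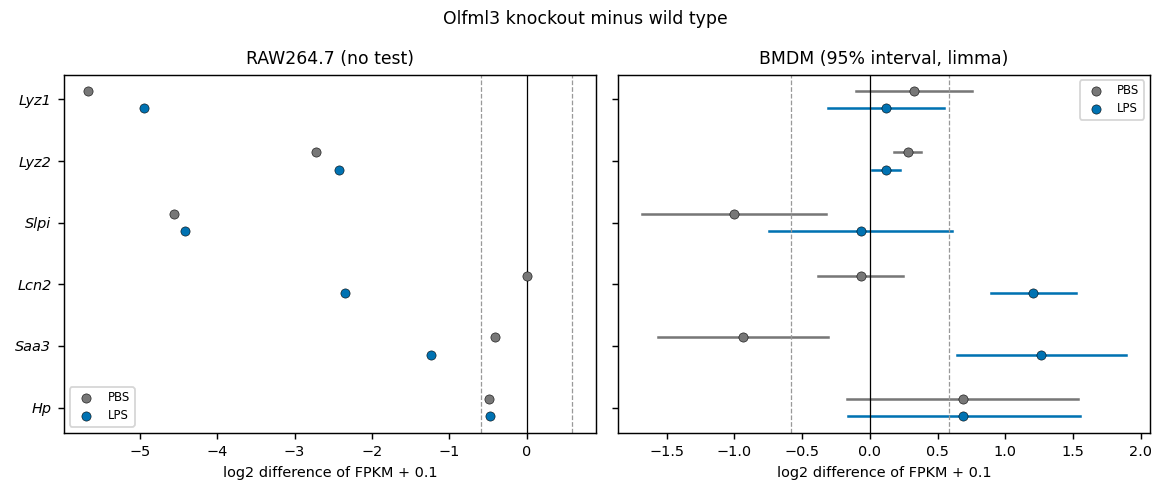
Log2 difference of FPKM plus 0.1, knockout minus wild type, for each gene with PBS (grey) and LPS (blue). RAW264.7 points (left, labelled knockout) have no test, BMDM points (right) carry 95% intervals from limma, and dashed lines mark 1.5-fold. Lcn2 and Saa3 with LPS lie at -2.35 and -1.24 in RAW264.7 and at 1.21 and 1.27 in BMDMs.

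Called as higher with LPS in wild-type RAW264.7 were Slpi, Lcn2 and Saa3, 3 of 6, beside 5.80% of all genes called as higher and 18.3% in either direction. Lcn2 had a value in the RAW264.7 fit only through the LPS libraries, so no p is given for it and its call supports nothing. Saa3 rose by 7.45 on the log2 scale (SE 0.35, adjusted p = 2.61e-07, limma) and Slpi by 1.36 (SE 0.30, adjusted p = 0.00782). Lcn2, at 0 before LPS, was at least 43.7-fold higher, taking 3 counts over the group as the floor. In labelled knockout the same 3 genes were called as higher, beside 7.45% of all genes higher and 22.1% in either direction: Saa3 by 6.61 (adjusted p = 4.33e-07), Slpi 3.74-fold in mean FPKM (adjusted p = 0.00391) and Lcn2 at least 6.01-fold, from 4 to 6 counts per library, with tests by limma. These libraries also supplied the values by which Lyz1 and Slpi were chosen. The lysozymes did not pass in either: Lyz2 differed by 0.10 in wild type and by 0.39 in labelled knockout (adjusted p = 0.742 and 0.0785), the latter becoming 0.59 (adjusted p = 0.000162, a call) without labelled knockout PBS library 1. Over all alternatives the adjusted p of Lyz2 in labelled knockout ran from 2.92e-07 to 0.252, and that of Lyz1 from 0.00383 to 1. Lyz1 differed by -0.22 and 0.49, the latter 1.23 (adjusted p = 0.00383) without labelled knockout LPS library 3, which had 0 counts.

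In wild-type BMDMs 2 of 6 were called as higher with LPS, beside 7.94% of all genes called as higher and 40.4% in either direction. In knockout BMDMs 3 of 6 were called as higher, beside 8.02% and 38.9%. Saa3 rose by 6.77 in wild type and 8.97 in knockout (SE 0.28 each, adjusted p = 1.37e-08 and 2.24e-09, limma), and Lcn2 by 4.64 and 5.92 (SE 0.14 each, adjusted p = 1.62e-09 and 3.64e-10). Slpi rose by 1.54 in knockout (adjusted p = 0.00148), against 0.60 in wild type (adjusted p = 0.130), and the difference between these responses was not called (0.93, adjusted p = 0.285). The scaling mattered here, since the median of all genes was -0.30 in wild type and -0.28 in knockout on deposited FPKM, and edgeR and DESeq2 moved the values of single genes up by a median of 0.65 to 0.76. On that footing Slpi and Hp were also called as higher in wild type. Lyz2, at -0.31 and -0.46 on deposited FPKM and under the fold limit, then lay at 0.47 and 0.21 (edgeR), so no direction is given for it.

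**Figure D4:**
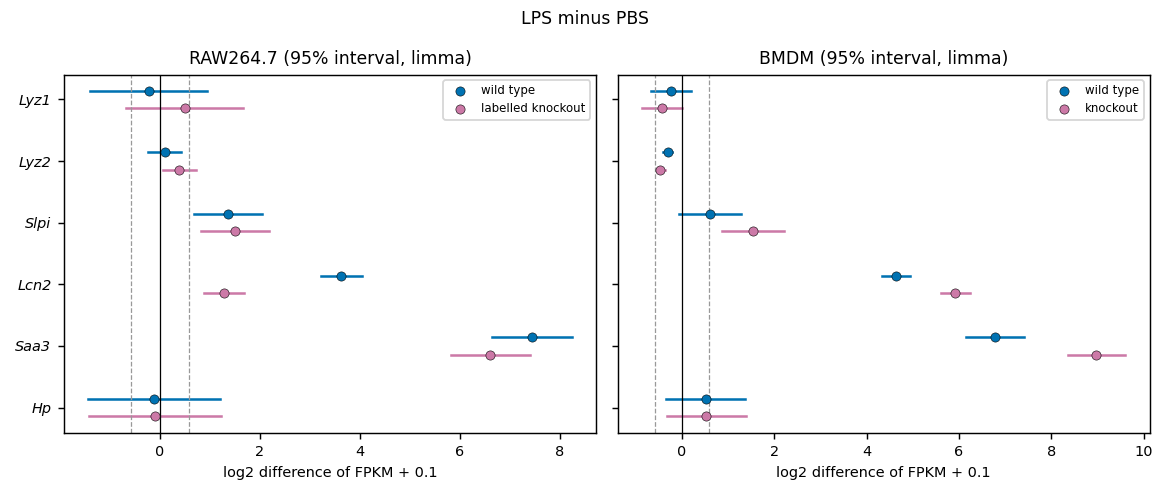
Log2 difference of FPKM plus 0.1, LPS minus PBS, with 95% intervals from limma, for wild type (blue) and knockout or labelled knockout (pink), RAW264.7 left and BMDM right. Dashed lines mark 1.5-fold. Saa3 lies furthest right in all 4 groups, at 7.45 and 6.61 in RAW264.7 and 6.77 and 8.97 in BMDMs.

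Ordered by mean FPKM, wild-type RAW264.7 with PBS ran Lyz2, Lyz1, Slpi, Saa3, Hp and Lcn2, where Lyz1 (9.42 to 10.20) and Slpi (8.50 to 9.54) overlapped, as did Saa3 and Hp. Wild-type BMDMs with PBS ran Lyz2, Lyz1, Saa3, Slpi, Hp and Lcn2, where Saa3 (0.43 to 0.86), Slpi (0.15 to 0.50) and Hp (0.14 to 0.48) overlapped. After LPS Saa3 was second to Lyz2 in all 4 LPS groups.

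Most of the genes listed as regulators passed the test with LPS. The list holds the cytokines Il6 and Il1b beside transcription factors and a cofactor. These cytokines had its largest rises in wild-type BMDMs, 9.30 and 9.06 on the log2 scale. Of 11 regulators, 9 were higher and 1 lower with LPS in wild-type BMDMs, beside 40.4% of all genes called, with a median log2 difference of 2.05 against -0.30 over all genes. In wild-type RAW264.7, 7 were higher and 1 lower, beside 18.3% of all genes (median 1.19 against -0.05). Nfkbiz, the IkBz cofactor, rose by 5.44 in wild-type BMDMs, from 2.06 to 93.3 FPKM (adjusted p = 1.25e-11, limma). Cebpa, a C/EBP factor of resting myeloid cells, fell by 6.28, from 56.7 to 0.633 FPKM (adjusted p = 7.68e-11). Cebpd, a C/EBP factor of the acute phase, rose by 2.68 (adjusted p = 2.75e-08).

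Between the BMDM genotypes with LPS, 2 of 11 regulators were higher in knockout, beside 3.23% of all genes, and the median was 0.25 against 0.04 over all genes. Il1b, an inflammatory cytokine, went from 722.9 to 1609 FPKM (log2 difference 1.16, adjusted p = 0.000128, limma), and Cebpa from 0.633 to 1.14 (0.76, adjusted p = 0.0016). Nfkbiz was 93.3 and 105.3 FPKM (0.17, adjusted p = 0.137). Cebpb, the C/EBP factor best known from LPS-treated macrophages, was 46.6 and 69.5 FPKM, a log2 difference of 0.58 that missed the fold limit (adjusted p = 0.0022). Stat3 went the other way, from 52.8 to 36.8 FPKM (-0.52, adjusted p = 3.92e-05, limma), as did Rela (-0.16, adjusted p = 0.0363), both short of the fold limit. In RAW264.7 with LPS (no test), the median of the 11 regulators was -0.13 in labelled knockout against wild type. Nfkbiz (59.9 to 130.7 FPKM), Nfkb1 (88.3 to 130.5) and Il6 (24.8 to 100.1) were higher there, unlike Lcn2 and Saa3. The other means were lower, Cebpb the most on the log2 scale (49.8 to 16.4 FPKM).

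Of 12 protease inhibitors, 8 had a value in BMDMs and 2 were higher and 1 lower in knockout with LPS, beside 4.76% of all genes called (median 0.08 against 0.04). Wfdc18, of the whey acidic protein family to which Slpi belongs, went from 0.173 to 0.890 FPKM (log2 difference 1.80, adjusted p = 0.00888, limma), and Serpinb1a, an elastase inhibitor, from 0.557 to 0.947 (0.68, adjusted p = 0.000431). Serpina3g went the other way, from 72.1 to 25.2 FPKM (-1.51, adjusted p = 0.000122). With PBS, Serpinb1a alone passed, at 2.39 and 3.81 FPKM (0.65, adjusted p = 0.00147), beside 1.82% of all genes called.

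Of 12 acute phase proteins, 10 had a value in BMDMs and 3 exceeded 1 FPKM in a group. With LPS 5 were higher in wild type and 5 in knockout, beside 7.94% and 8.02% of all genes. Between the genotypes with LPS, 1 was lower in knockout than in wild type, beside 4.76% of all genes called in either direction. That was Ptx3, a long pentraxin, at 0.723 and 0.397 FPKM (-0.73, adjusted p = 0.00664, limma). Cp, the copper protein ceruloplasmin, rose with LPS by 3.91 in wild type and 4.70 in knockout, and was lower in knockout with PBS (1.00 and 0.607 FPKM, -0.64, adjusted p = 0.00328). In wild-type RAW264.7 with LPS, 2 of 7 acute phase genes with a value were higher, beside 5.80% of all genes, and 3 of the 7 exceeded 1 FPKM in a group. Of 9 protease inhibitors with a value, 3 of them above 1 FPKM in a group, 2 were higher and 1 lower, beside 18.3% called in either direction. Among them Wfdc17 rose by 2.08, from 6.42 to 27.6 FPKM (adjusted p = 4.95e-05, limma).

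Of 7 receptors and clearance genes, 3 were higher and 3 lower with LPS in BMDMs of both genotypes, beside 40.4% of all genes called in wild type and 38.9% in knockout. Fpr2, a formyl peptide receptor that also binds serum amyloid A, rose by 5.69 in wild type and 5.97 in knockout. Cd163, the receptor that clears haptoglobin and hemoglobin, fell by 3.87 in wild type and fell by 3.79 in knockout. Hmox1, which degrades heme, was 46.4 FPKM in wild type and 84.5 in knockout with LPS (0.86, adjusted p = 4.9e-05, limma). It was the 1 of 7 called between genotypes with LPS, beside 4.76% of all genes. With PBS none of the 7 was called, beside 1.82%.

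Of 14 granule and antimicrobial proteins, all had a value in BMDMs but 4 exceeded 1 FPKM, and in wild type 1 was higher and 2 were lower with LPS, beside 40.4% of all genes called. Camp, the cathelicidin, went from 0.02 to 0.18 FPKM, and Ltf, lactoferrin, from 0.18 to 0.04. Of 5 further lysozyme family genes, Lyzl4 alone had a value in BMDMs and was lower with LPS (3.28 to 0.907 FPKM in wild type, -1.80, adjusted p = 0.000363, limma). The lists were tested on deposited FPKM only. Since edgeR and DESeq2 moved LPS differences in BMDMs up, the falls of list genes there depend on that scaling to an extent that was not tested. Of 6 macrophage markers, 5 in RAW264.7 and 6 in BMDMs exceeded 1 FPKM, but levels differed by genotype. In RAW264.7 with PBS (no test), Itgam was 6.43 FPKM in wild type and 1.88 in labelled knockout, Adgre1 10.7 and 4.67, and Cd68 578 and 454. Csf1r (263 and 340) and Fcgr1 (18.3 and 22.1) were higher. In BMDMs Fcgr1 alone was called, lower in knockout with PBS (118.5 and 53.4 FPKM) and LPS (260 and 167), beside 1.82% and 4.76% of all genes. Ly6g, the neutrophil surface marker, had no count in either cell type, but 4 of 6 neutrophil markers exceeded 1 FPKM in every BMDM group, and in wild type with PBS Csf3r was at 28.5, Mmp8 at 8.98, S100a8 at 3.23 and S100a9 at 1.92 FPKM.

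Genes whose log2 values tracked each member most closely over the 12 libraries of a cell type are given as a description, since the libraries fall into 4 groups. In RAW264.7 the closest gene to Saa3 was the chemokine Cxcl2 (Pearson r = 0.999 among 12098 genes), to Lcn2 the gelatinase Mmp9 (0.992), to Slpi the phosphatase Ptpn5 (0.988), to Lyz1 the protease inhibitor precursor Ambp (0.988) and to Lyz2 the thymosin Tmsb10 (0.997). The third for Lyz2 was Eif2s3y (0.987), a gene of the Y chromosome. It had 10.4 FPKM in wild type with PBS, 9.47 in wild type with LPS and 0 in all 6 labelled knockout libraries. In BMDMs the closest were Lztfl1 for Lcn2 (0.999) and mt-Co1 for Lyz2 (0.984), among 11359 genes, while for Lyz1 the highest was 0.878 (Tomm6).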

How the data were processed

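The deposited tables, 1 per cell type, held 12 libraries each, with whole-number counts per gene as deposited and FPKM that the authors computed from counts, exon length and library total. According to the study's methods, poly(A) libraries were read in pairs of 150 bases. No aligner or counting program is named in the sources used here. The labels name mm10, but the coordinate columns of the tables differed from GRCm38, so positions were taken from the GRCm38 annotation and promoters from RefSeq. All 72 FPKM values of the 6 genes in each table matched counts, exon length and library total within 1%, or within 0.011 FPKM. Counting error limits values that rest on few reads, and molecules were not tagged.

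Genes above 0 FPKM in at least 1 library were fitted per cell type with limma 3.58.1 (R 4.3.3) on log2(FPKM + 0.1), with 4 group means and Benjamini-Hochberg adjustment over all genes. A fold change on this scale understates the change of low genes. edgeR 4.0.16 and DESeq2 1.42.0 on the deposited counts, other scalings, pseudocounts, filters, a replicate block and leaving out each library were alternatives. Named genes were the 6, Olfml3, the 3 closest in pattern and up to 3 called genes with the largest change per list and comparison described. Nfkbiz, Nfkb1, Cebpb, Cebpd, Stat3, Rela and the individual cell type markers were added after their values were seen. The genes and lists were chosen with earlier results of these data known. The gene closest to Saa3 in BMDMs is not reported here. The scripts were tested on simulated data.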

Additional observations from a re-analysis of the deposited data

Results flagged for a closer look

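The knockout effect in BMDMs differed between LPS and PBS for Lcn2, by 1.28 on the log2 scale (adjusted p = 0.00521, limma), and for Saa3, by 2.20 (adjusted p = 0.0109, limma). The Lcn2 call was lost with a pseudocount of 0.01, edgeR, edgeR without a filter and DESeq2 (adjusted p 0.0956 to 0.376). For Saa3 every knockout library lay below wild type with PBS and above it with LPS, where the difference was 1.27.

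Between the cell types, some values lay on opposite sides in every library, and these differences were not tested. The groups are those of the titles, and in RAW264.7 Olfml3 RNA was higher in the libraries labelled knockout. Lyz2 was lower in labelled knockout RAW264.7, while its log2 difference in knockout BMDMs was 0.28 with PBS, under the fold limit, and 0.12 with LPS, not called (adjusted p = 0.106, limma) and at or below 0 in 5 settings (down to -0.0365 with DESeq2). Since Lyz2 ranked first in every BMDM library, quantile normalization fixes its difference at 0 and tells nothing of its direction. Lcn2 and Saa3 with LPS were lower in labelled knockout RAW264.7 and higher in knockout BMDMs, by 1.21 and 1.27. The LPS minus PBS difference of Lyz2 in wild type was 0.10 in RAW264.7 (adjusted p = 0.742, limma) and -0.31 in BMDMs on deposited FPKM, neither called, and the sign in BMDMs turned with median-ratio scaling, edgeR and DESeq2, so it has no settled direction.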

How the results depend on the processing

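The counts of genes called were recomputed under up to 26 settings per comparison. In BMDMs with PBS the count of 0 became 1 with a filter of at least 1 FPKM in 3 libraries (Saa3), with edgeR without a filter and DESeq2 (Saa3), with adjusted p alone (Lyz2) and with the replicate block (Slpi, adjusted p = 0.0299), and 2 with edgeR (Slpi and Saa3). Leaving out 1 library gave 0 to 1, the 1 being Slpi without wild-type PBS library 2 (adjusted p = 0.0283). For the BMDM interaction the count of 2 became 1 (Saa3) with a pseudocount of 0.01, edgeR, edgeR without a filter and DESeq2, where Lcn2 had adjusted p values of 0.0956, 0.199, 0.376 and 0.209. With LPS in wild-type BMDMs the count of 2 became 4 with median-ratio scaling, edgeR with and without a filter and DESeq2 (Slpi and Hp added), and 5 with quantile normalization, where Lyz1 turned from -0.23 to 0.70 (adjusted p = 0.0155). Leaving out 1 library there gave 2 to 3, the 3 being Slpi without wild-type PBS library 3 (0.91, adjusted p = 0.0173). The causes were not tested. The other 4 comparisons stayed within 1.5 times of their counts. A sign was compared only where a value was called, and 71 of 1470 single values had another sign without passing before or after.

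The replicate numbers did not pair the libraries: the 18 correlations of same-numbered libraries lay between -0.0654 and 0.0596 in RAW264.7 and between -0.0332 and 0.0890 in BMDMs. The replicate block also called Slpi with LPS in wild-type BMDMs (adjusted p = 0.0235). In labelled knockout RAW264.7 with LPS, Lcn2 was not called with a pseudocount of 1 (0.20), and Lyz2 was called with median-ratio scaling, edgeR and DESeq2 (0.60 to 0.66). In knockout BMDMs with LPS, Slpi fell under the fold limit with a pseudocount of 1 (0.42), and Hp was called with median-ratio and quantile scaling, edgeR and DESeq2. Depth limits Hp in all groups, Slpi in BMDMs and labelled knockout RAW264.7, Lcn2 with PBS, and Lyz1 in labelled knockout RAW264.7.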
